A study of Rattus norvegicus with 16 samples.

Results

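The 9 genes described here encode aggrecanases and the tissue inhibitors of metalloproteinases (TIMPs): Adamts1, Adamts4, Adamts5, Adamts9, Adamts12 and Adamts15, and Timp1, Timp2 and Timp3. They were taken by gene symbol from a table of 23552 rat genes, and 9 of 9 were found. RNA of knee cartilage was sequenced in 16 libraries, 4 for each of 4 groups, all from rats of 10 weeks of age. The coacervate group was osteoarthritic cartilage from rats given a coacervate (a dense liquid phase that separates from a polymer solution), cells and a drug, and the HA group was from osteoarthritic rats given hyaluronic acid, cells and a drug. The other groups were osteoarthritic cartilage, with libraries named PBS, and healthy cartilage, with libraries named Sham. The labels name no strain, sex, drug, cell type or way of inducing the disease, and no group here received a coacervate or hyaluronic acid without cells and drug. They do not say whether replicates came from separate animals, so p-values measure the spread between these samples, which may be technical.

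Aggrecan is the large proteoglycan that gives cartilage its resistance to compression, and aggrecanases are secreted ADAMTS metalloproteinases that cut its core protein. ADAMTS4 and ADAMTS5 are the enzymes best known for this in joints, while ADAMTS1, ADAMTS9 and ADAMTS15 cut aggrecan less readily and also cut versican, a related proteoglycan of fibrous tissue. ADAMTS12 is better known for cutting cartilage oligomeric matrix protein than aggrecan. TIMP3, which binds to the matrix, is the TIMP that inhibits ADAMTS4 and ADAMTS5 strongly, whereas TIMP1 and TIMP2 act mainly on matrix metalloproteinases (MMPs).

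Total counts were 36988722 to 50725189 per library, and 18627 to 19457 genes had at least 1 count. Of the chondrocyte markers, 12 of 12 were in the table and none was at 0 in all libraries. Their summed level was 2610 to 4040 normalised CPM (counts scaled to a common library size) in coacervate, 3700 to 5400 in HA, 2240 to 5010 in osteoarthritic and 2410 to 4760 in healthy libraries. Markers of other cell types were also present, and 6 erythroid markers summed to 90500 to 231000 normalised CPM over all libraries. Osteoblast and osteocyte markers (8 of 8 in the table) summed to 7420 to 17200, above the chondrocyte sum in each library. Skeletal muscle markers (6 of 8) summed to 3430 to 19000 and osteoclast markers (7 of 7) to 1160 to 3030. In such bulk RNA fewer cells of a type and less RNA per cell cannot be told apart. 2 of the osteoarthritic libraries, replicates 2 and 3, were unlike all others. On the first principal component, which held 32.5% of the variance, they lay at 69.6 and 58.9, against -32.3 to 12.7 for the rest. Named haemoglobin genes took 20.59% and 19.98% of their counts, against 12.04% and 9.566% in osteoarthritic replicates 1 and 4 and 10.6% to 15.64% in the other groups. Their summed neutrophil markers (6 of 6 in the table) were 17800 and 11400 normalised CPM, against 3860 to 8470 in the other 14 libraries.

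The promoter sequences of the 3 inhibitors are shown because their levels had different patterns across the groups. The windows are the 250 bases before the annotated start, 5′ to 3′ in the direction of transcription, from RefSeq on build GRCr8 (7 of the 9 genes had one). Capitals mark matches, on either strand, to 6 motifs. They were the AP-1 site TGANTCA, an AP-1 variant looked for because the Timp1 promoter holds it, written TGAGTAA, the Ets core AGGAAG, the Runx core TGTGGT, the GC box GGGCGG and the TATA box TATAAA. No match in the windows shown overlaps another.
Timp1, minus strand, chrX:3771123-3771372: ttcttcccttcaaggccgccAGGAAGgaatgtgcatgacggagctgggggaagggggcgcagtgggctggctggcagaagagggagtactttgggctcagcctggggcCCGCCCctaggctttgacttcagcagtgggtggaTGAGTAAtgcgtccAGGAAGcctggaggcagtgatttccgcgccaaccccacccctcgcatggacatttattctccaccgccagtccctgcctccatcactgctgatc
Timp2, minus strand, chr10:104089215-104089464: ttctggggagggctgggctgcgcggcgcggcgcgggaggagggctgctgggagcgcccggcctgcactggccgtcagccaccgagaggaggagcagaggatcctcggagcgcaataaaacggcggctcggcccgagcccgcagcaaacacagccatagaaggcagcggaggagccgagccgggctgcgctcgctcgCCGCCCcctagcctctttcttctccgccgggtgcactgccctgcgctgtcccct
Timp3, minus strand, chr7:19459559-19459808: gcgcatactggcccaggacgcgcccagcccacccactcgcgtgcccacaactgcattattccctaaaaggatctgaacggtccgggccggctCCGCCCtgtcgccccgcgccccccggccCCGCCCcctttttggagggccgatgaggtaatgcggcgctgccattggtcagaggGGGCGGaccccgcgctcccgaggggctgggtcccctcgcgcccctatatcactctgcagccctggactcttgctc
The Timp1 window held 1 TGAGTAA, which began 108 bases before the start, with 2 AGGAAG matches and 1 GC box. None of the other 6 windows held TGAGTAA, which was in 2.38% of 33469 rat promoter windows of this length. The Timp2 window held 1 GC box and the Timp3 window 3. GC boxes were also in the windows of Adamts1 and Adamts9, and in 30.5% of all windows. AGGAAG was in 29.5% of all windows, and among the 7 genes with a window also in those of Adamts4 and Adamts12. TATAAA, in 12.9% of all windows, was found in that of Adamts1 only among these 7. TGANTCA (6.34% of all windows) and TGTGGT (14.5%) were in none of the 7. A match is a string of letters, not a shown binding site.

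Inhibitor transcripts far outnumbered those of the proteases. Per length, Timp2 was the most abundant, at 98.4 ± 25.8 fragments per kilobase, scaled to depth (FPKM; SD over the 16 libraries), followed by Timp3 at 54.8 ± 12.4 and Timp1 at 41.8 ± 15.9 FPKM. Adamts9, Adamts5 and Adamts1 had 4.75 ± 1.14, 4.57 ± 1.37 and 4.26 ± 1.74 FPKM, levels that differed by less than their spread. Adamts12 and Adamts15 followed at 1.76 ± 0.666 and 1.47 ± 0.931 FPKM. Adamts4 was lowest at 0.966 ± 0.359 FPKM, and its smallest count in a library was 132. In the deposited table's rn6 positions, Timp1 lies within Syn1 and Timp3 within Syn3 on the opposite strand, and Timp2 overlaps Cep295nl on the same strand. Those neighbours had at most 247, 109 and 64 counts in a library, against at least 985, 2683 and 5828 for Timp1, Timp3 and Timp2.

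**Figure D1:**
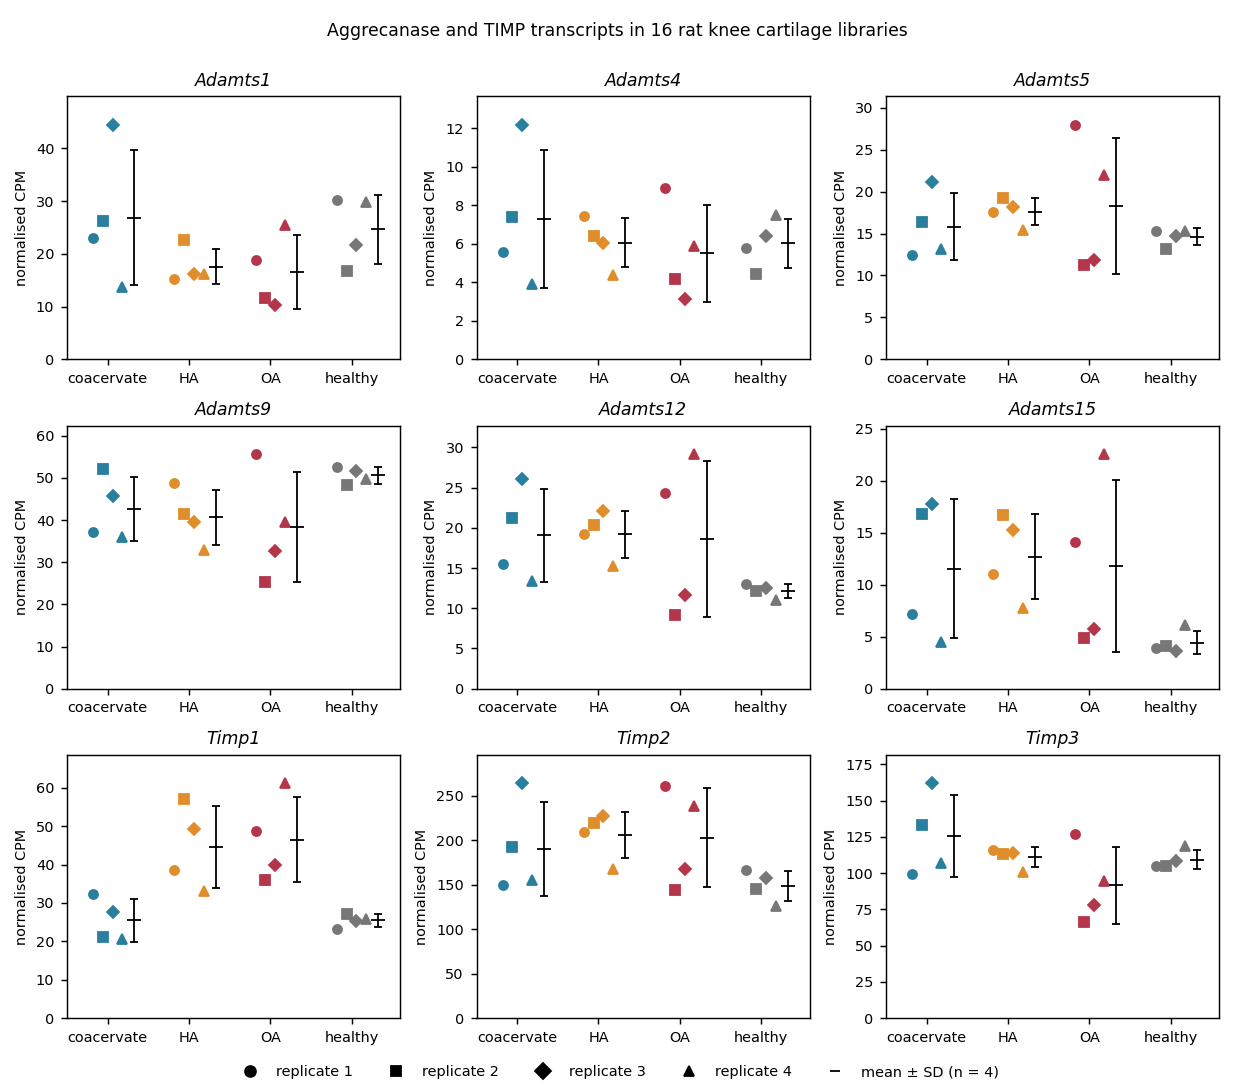
Normalised CPM (y axis, a separate linear scale from 0 for each gene) of the 9 genes in coacervate, HA, osteoarthritic (OA) and healthy libraries. Each symbol is a library, its shape gives the replicate number, and the bar is the group mean ± SD (n = 4). Timp1 lies between 20.6 and 32.4 in coacervate and between 23.3 and 27.1 in healthy libraries, below every HA and osteoarthritic library (33.1 to 61.2).

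Across the 6 pairs of groups, Timp1 was the gene whose level followed the groups most closely: it was higher in each HA and osteoarthritic library than in each coacervate and healthy library. Adamts15, Adamts12 and Timp2 had higher means in all 3 osteoarthritic groups than in healthy cartilage, with wide spread between libraries. The principal aggrecanases Adamts4 and Adamts5 had smaller log2 differences, from -0.21 to 0.40 over the 6 comparisons. Each p-value is from edgeR's quasi-likelihood test over 14337 genes with Benjamini-Hochberg adjustment and a threshold of 0.05 (adjusted p). The test called none of the 9 genes in any comparison, and the smallest adjusted p was 0.0649.

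These counts of 0 stood beside low shares of all tested genes. In osteoarthritic against healthy cartilage 72 genes (0.502%) passed the test, and 3 of the 9 genes had an unadjusted p under 0.05 (17.8% of all genes). For coacervate against osteoarthritic these figures were 21 genes (0.146%) and 2 of 9 (21.8%), and for HA against osteoarthritic they were 0 genes (0.0%) and 0 of 9 (6.34%), with none of the 9 free of overlap between the groups (1.9% of all genes). Coacervate against HA gave 0 genes (0.0%) and 1 of 9 (10.4%). HA against healthy gave 23 genes (0.16%) and 4 of 9 (8.25%), and coacervate against healthy 0 genes (0.0%) and 2 of 9 (3.85%). The counts over all genes hung on single libraries: without osteoarthritic replicate 1 they were 1122 for osteoarthritic against healthy and 2054 for coacervate against osteoarthritic, and over all libraries left out in turn they ran from 15 to 1122, from 0 to 2054 and, for HA against healthy, from 0 to 37. DESeq2 called 1 of the 9, Timp1, in 4 of the 6 comparisons and none in the other two, HA against osteoarthritic (8 genes called in all, 0.0558%) and coacervate against healthy (18 genes, 0.126%). A test of any difference among the 4 groups called 42 genes (0.293%) and none of the 9, and 14.4% of all genes had an unadjusted p under 0.05. Timp1 came nearest (F = 12.4, adjusted p = 0.0559), followed by Adamts15 (F = 3.75, adjusted p = 0.306). For HA against osteoarthritic the log2 fold changes of the 9 genes ran from -0.06 to 0.28 (adjusted p = 0.759 to 0.982), and for coacervate against healthy from -0.24 to 1.38 (adjusted p = 1.0 for each). The comparisons share libraries, so they are not independent of each other.

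**Figure D2:**
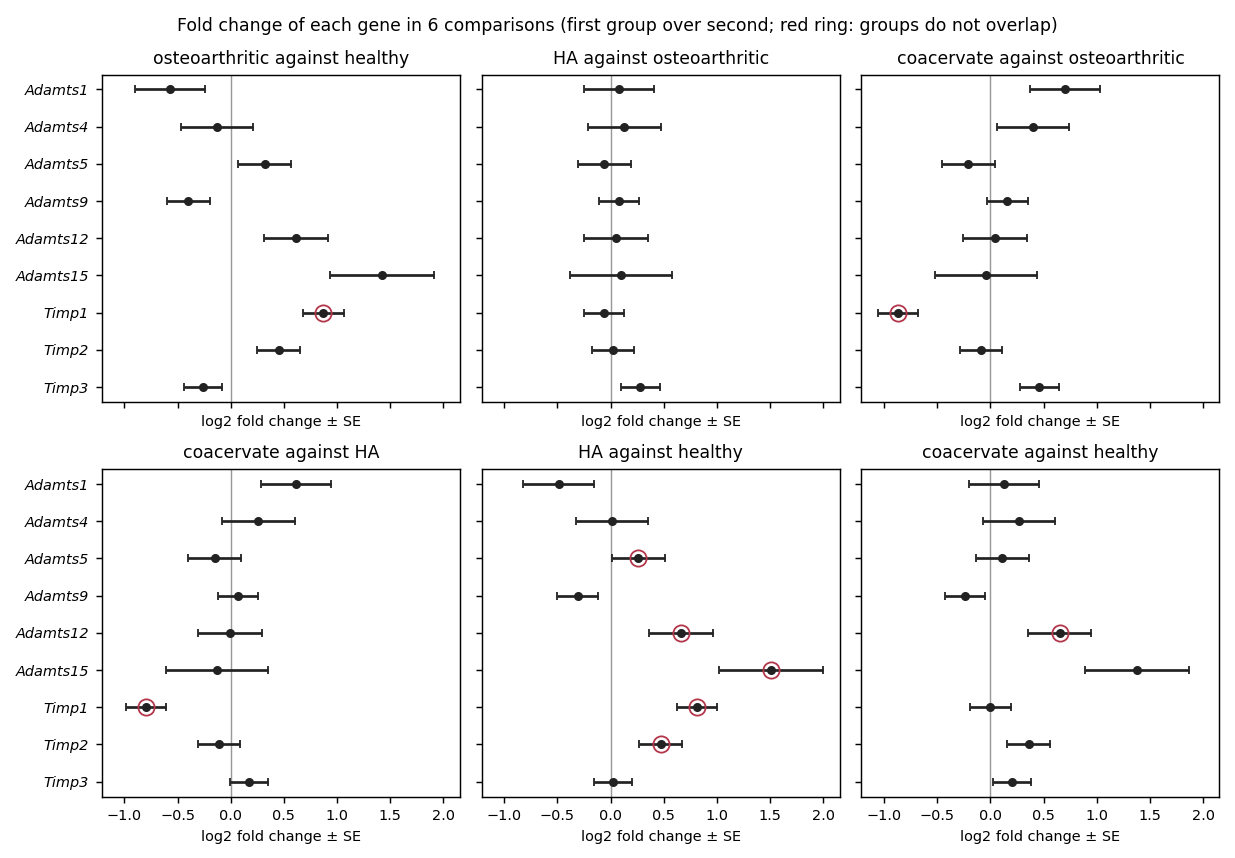
Log2 fold change ± SE (x axis, edgeR) of each gene in the 6 comparisons, first-named group over second. A red ring marks groups whose 4 and 4 libraries do not overlap, which holds for Timp1 in 4 panels, for 5 genes in HA against healthy and for Adamts12 in coacervate against healthy.

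Adamts5 (rn6 chr11:25410975-25456836, minus strand), the main aggrecanase of the mouse knee, had 12.5, 16.4, 21.2 and 13.1 normalised CPM in coacervate and 17.6, 19.2, 18.2 and 15.4 in HA replicates 1 to 4. Osteoarthritic replicates 1 to 4 had 28.0, 11.2, 11.9 and 22.0 normalised CPM, and healthy ones 15.3, 13.2, 14.7 and 15.3. The osteoarthritic libraries thus lay on both sides of the healthy ones, 2 above and 2 below, and the HA libraries were all just above the healthy range. The log2 fold change of Adamts5 was 0.32 ± 0.25 (SE) for osteoarthritic against healthy (adjusted p = 0.5). It was 0.26 ± 0.25 for HA against healthy (adjusted p = 0.945) and -0.21 ± 0.25 for coacervate against osteoarthritic (adjusted p = 0.623). Adamts4 (rn6 chr13:89622632-89634419, plus strand), an aggrecanase that inflammatory cytokines induce in cartilage cells, had 5.58, 7.41, 12.2 and 3.91 normalised CPM in coacervate and 7.43, 6.4, 6.06 and 4.37 in HA libraries. Osteoarthritic libraries had 8.9, 4.15, 3.14 and 5.88 normalised CPM of Adamts4, and healthy ones 5.79, 4.41, 6.43 and 7.49. All 4 groups overlapped, and its log2 fold changes ran between -0.13 ± 0.34 for osteoarthritic against healthy and 0.40 ± 0.34 for coacervate against osteoarthritic (adjusted p = 0.859 and 0.492). In every group the mean FPKM of Adamts5 was above that of Adamts4, by ratios of 4.25 ± 1.22 in coacervate, 5.27 ± 0.854 in HA, 5.94 ± 0.924 in osteoarthritic and 4.43 ± 0.747 in healthy libraries (mean of the ratio ± SD, n = 4).

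Adamts1 (rn6 chr11:25342126-25350974, minus strand) and Adamts9 (rn6 chr4:124660262-124858250, minus strand), which both cut versican, had lower means in osteoarthritic than in healthy cartilage. Adamts1 is also induced by hormones in the ovary. It had 23.0, 26.2, 44.5 and 13.8 normalised CPM in coacervate, 15.3, 22.6, 16.2 and 16.2 in HA, 18.8, 11.6, 10.3 and 25.5 in osteoarthritic, and 30.2, 16.7, 21.7 and 29.9 in healthy libraries. Coacervate replicate 3 was far the highest of the 16 and the groups overlapped. The log2 fold change of Adamts1 was -0.57 ± 0.33 for osteoarthritic against healthy (adjusted p = 0.367), 0.70 ± 0.33 for coacervate against osteoarthritic (adjusted p = 0.231) and 0.61 ± 0.33 for coacervate against HA (adjusted p = 0.567). Without coacervate replicate 3 the last 2 values of Adamts1 were 0.34 (range 0.34 to 0.96 over the libraries left out in turn) and 0.26 (range 0.26 to 0.83). That coacervate library also had the highest summed skeletal muscle markers (6 of 8 in the table), 19000 normalised CPM against 3430 to 9010 in the other 15, and their part in the result was not tested. Adamts9 had 37.2, 52.0, 45.8 and 35.9 normalised CPM in coacervate, 48.8, 41.4, 39.5 and 32.9 in HA, 55.7, 25.3, 32.7 and 39.6 in osteoarthritic, and 52.7, 48.3, 51.6 and 49.7 in healthy libraries. Healthy libraries sat close together, and 3 of the 4 osteoarthritic ones lay below them. The log2 fold change of Adamts9 was -0.40 ± 0.20 for osteoarthritic against healthy (adjusted p = 0.296). Without osteoarthritic replicate 1 it was -0.63 and passed the test (adjusted p = 0.0419, range over the alternatives 0.0419 to 0.851), when 1122 of all genes (7.83%) passed.

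Adamts15 (rn6 chr8:31977001-32000378, minus strand) had the largest fold differences from healthy cartilage among the 9 genes, in each of the 3 osteoarthritic groups. It had 7.18, 16.8, 17.8 and 4.48 normalised CPM in coacervate and 11, 16.7, 15.3 and 7.78 in HA libraries. Osteoarthritic libraries had 14.1, 4.87, 5.78 and 22.6 normalised CPM of Adamts15, and healthy ones 3.89, 4.08, 3.67 and 6.12. Every HA library was above every healthy one, while some coacervate and osteoarthritic libraries were as low as the healthy ones. The fold difference in Adamts15 was 2.86 for HA against healthy (log2 1.51 ± 0.49, adjusted p = 0.348), 2.67 for osteoarthritic against healthy (log2 1.42 ± 0.49, adjusted p = 0.203) and 2.60 for coacervate against healthy (log2 1.38 ± 0.49, adjusted p = 1.0). Between the 3 osteoarthritic groups its log2 fold changes were small, from -0.13 ± 0.48 for coacervate against HA to 0.10 ± 0.48 for HA against osteoarthritic. In the comparison of HA with healthy cartilage, 5 of the 9 genes did not overlap between the groups, which held for 9.83% of all genes; they were Adamts5, Adamts12, Adamts15, Timp1 and Timp2, all higher in HA (5.08% of all genes were wholly higher there).

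Adamts12 (rn6 chr2:61039053-61340697, plus strand) had a like pattern with smaller differences, at 15.5, 21.2, 26.1 and 13.4 normalised CPM in coacervate and 19.2, 20.3, 22.1 and 15.2 in HA libraries. Osteoarthritic libraries had 24.3, 9.17, 11.6 and 29.2 normalised CPM of Adamts12, and healthy ones 13.0, 12.1, 12.5 and 11. All HA and coacervate libraries were above the healthy range, and 2 osteoarthritic libraries were above it, 1 within it and 1 below. The log2 fold change of Adamts12 was 0.65 ± 0.30 for coacervate against healthy (adjusted p = 1.0; it was the 1 gene of 9 without overlap there, against 3.66% of all genes), 0.66 ± 0.30 for HA against healthy (adjusted p = 0.585) and 0.61 ± 0.30 for osteoarthritic against healthy (adjusted p = 0.299). Summed markers of synovial and other fibroblasts (8 of 8 in the table, none at 0 in all libraries) moved with both genes. They were 773, 1150, 1710 and 788 normalised CPM in coacervate, 1100, 1140, 1310 and 842 in HA, 1500, 579, 753 and 1210 in osteoarthritic, and 649, 605, 540 and 556 in healthy libraries. Their part in the differences was not tested. With HA and healthy libraries fitted alone, Adamts15 (log2 1.51, adjusted p = 0.0146, range over the alternatives 0.0146 to 0.727), Adamts12 (log2 0.65, adjusted p = 0.0256, range 0.0256 to 0.927) and Timp1 passed, with 390 genes in all (2.72%).

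The osteoarthritic group was split for every one of the 9 genes: osteoarthritic replicates 1 and 4 were both above replicates 2 and 3 in 9 of 9, a pattern held by 36.6% of all tested genes (5247 of 14337). Relative to the healthy mean, replicate 1 was above it in 8 of the 9 genes and replicate 4 in 6, while replicates 2 and 3 were above it in 2 and 3. Timp1 and Adamts15 were above the healthy mean in all 4. For Adamts15 the log2 ratio to the healthy mean was 1.66, 0.13, 0.38 and 2.35 in osteoarthritic replicates 1 to 4, and for Timp3 it was 0.21, -0.72, -0.48 and -0.22. Without osteoarthritic replicates 2 and 3, the osteoarthritic against healthy comparison called Timp1 (log2 1.11, adjusted p = 0.0227), Adamts12 (log2 1.13, adjusted p = 0.0243, range over the alternatives 0.0243 to 0.613) and Adamts15 (log2 2.04, adjusted p = 0.0475, range 0.0475 to 0.389), among 164 of all genes (1.14%). Adamts5 came to log2 0.77 (adjusted p = 0.0604, range 0.0604 to 0.908). That fit kept only 2 osteoarthritic libraries, the higher ones for all 9 genes, so its fold changes and calls depend on this choice. Within this group the haemoglobin share and the neutrophil markers were higher in replicates 2 and 3, where the 9 genes were lower. Markers of T and NK cells and of adipocytes were also higher there. Summed chondrocyte markers went the same way as the 9 genes, at 4980, 2240, 2580 and 5010 normalised CPM in osteoarthritic replicates 1 to 4. So did those of osteoblasts and osteocytes (16100, 7480, 7420 and 17200), endothelial cells (372, 210, 241 and 305), fibroblasts, osteoclasts and tendon. The part of all these markers in the result was not tested.

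**Figure D3:**
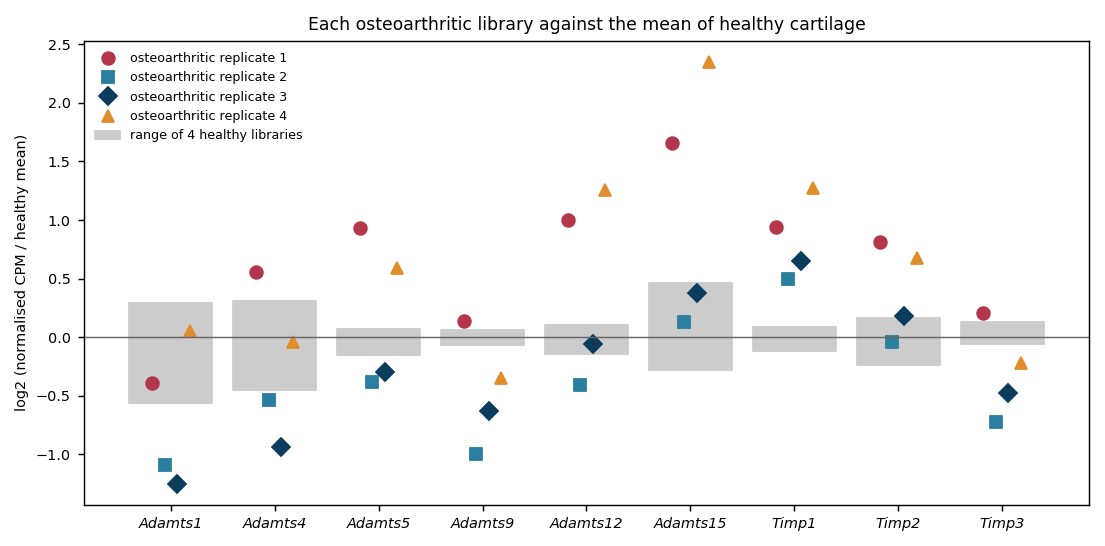
Log2 ratio of each osteoarthritic library to the mean of the 4 healthy libraries (y axis, normalised CPM) for the 9 genes, with grey boxes for the range of the healthy libraries. Replicates 1 and 4 lie above replicates 2 and 3 for every gene, and Timp1 is above the healthy range in all 4 libraries.

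Timp1 (rn6 chrX:1364786-1369384, minus strand), an inhibitor of most secreted MMPs that inflammatory and growth signals induce, had 32.4, 21.2, 27.7 and 20.6 normalised CPM in coacervate and 38.6, 57.0, 49.2 and 33.1 in HA libraries. Osteoarthritic libraries had 48.7, 36.1, 40.0 and 61.2 normalised CPM of Timp1, and healthy ones 23.3, 27.1, 25.4 and 25.9. All 4 osteoarthritic and all 4 HA libraries were above all coacervate and all healthy ones; the nearest values across this gap were 33.1 in HA replicate 4 and 32.4 in coacervate replicate 1. Timp1 was 1.83-fold higher in osteoarthritic than in healthy cartilage (log2 0.87 ± 0.19, adjusted p = 0.0649), the 1 gene of the 9 without overlap (6.33% of all genes). In coacervate-treated cartilage the log2 fold change of Timp1 was -0.87 ± 0.19 against osteoarthritic (adjusted p = 0.0822; again 1 of 9 without overlap, against 5.6% of all genes) and -0.80 ± 0.19 against HA (adjusted p = 0.155; 1 of 9, against 9.71%). HA libraries were 1.75-fold higher than healthy ones in Timp1 (log2 0.81 ± 0.19, adjusted p = 0.131). Coacervate against healthy gave 0.00 ± 0.19 and HA against osteoarthritic -0.06 ± 0.19 (adjusted p = 1.0 and 0.946). In the osteoarthritic against healthy comparison 89 genes (0.621%) had a smaller p than Timp1, and in coacervate against osteoarthritic 70 (0.488%).

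The Timp1 differences thus missed the threshold of edgeR, passed it under some other settings and missed it under others, always in the same direction. For osteoarthritic against healthy, edgeR missed it with RLE scaling (adjusted p = 0.0607), no filter (0.0771), a replicate block (0.151) and 2 groups alone (0.111). There limma on log2 FPKM missed it too (adjusted p = 0.197 and 0.193). DESeq2 gave adjusted p = 0.00275 for osteoarthritic against healthy, 0.00326 for coacervate against osteoarthritic, 0.0128 for coacervate against HA and 0.0129 for HA against healthy, where it called 2.92%, 5.56%, 2.27% and 1.11% of all genes. Over all alternatives edgeR, DESeq2 and limma gave Timp1 adjusted p-values of 0.00275 to 0.197, 0.00326 to 0.45, 0.0128 to 0.433 and 0.0129 to 0.466 in these comparisons. In edgeR, Timp1 passed for osteoarthritic against healthy without osteoarthritic replicate 1 (adjusted p = 0.0386, with 7.83% of all genes) and without replicate 2 (adjusted p = 0.0446, with 0.432%). It passed for coacervate against osteoarthritic without osteoarthritic replicate 1 (adjusted p = 0.0263, with 14.3% of all genes) and without replicate 4 (adjusted p = 0.0378, with 9.54%). Without osteoarthritic replicates 2 and 3, coacervate against HA passed for Timp1 (adjusted p = 0.0482, with 1.04% of all genes) and coacervate against osteoarthritic did not (log2 -1.11, adjusted p = 0.0647, with 0.0209%). With HA and healthy libraries fitted alone, Timp1 had adjusted p = 0.0239. The test of any difference among the groups called Timp1 without those libraries (adjusted p = 0.0238), without osteoarthritic replicate 1 (adjusted p = 0.0383) or 2 (adjusted p = 0.0428) and without HA replicate 4 (adjusted p = 0.038), within a range of 0.0238 to 0.181 over the alternatives. Summed macrophage markers (8 of 8 in the table) were 1000 to 1080 normalised CPM in coacervate, 975 to 1210 in HA, 977 to 1130 in osteoarthritic and 950 to 1360 in healthy libraries. Neutrophil markers were lowest in coacervate libraries, at 3860 to 5500, against 6650 to 8470 in HA, 4800 to 17800 in osteoarthritic and 5490 to 6790 in healthy libraries. Their part in the Timp1 result was not tested.

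Timp2 (rn6 chr10:107338465-107386072, minus strand), which inhibits MMPs and also helps membrane-type MMP to activate pro-MMP2, had 150, 192, 264 and 155 normalised CPM in coacervate, and 209, 219, 227 and 168 in HA libraries. Osteoarthritic libraries had 261, 144, 168 and 238 normalised CPM of Timp2, and healthy ones 166, 145, 157 and 126. Only the HA group was wholly above the healthy range, by little. The log2 fold change of Timp2 was 0.47 ± 0.20 for HA against healthy (adjusted p = 0.538), 0.45 ± 0.20 for osteoarthritic against healthy (adjusted p = 0.262) and 0.36 ± 0.20 for coacervate against healthy (adjusted p = 1.0). The fibroblast markers given beside Adamts12 were, as for Timp2, higher in osteoarthritic replicates 1 and 4 than in 2 and 3 and higher in each HA library than in each healthy one, and their part in the Timp2 differences was not tested. Between the osteoarthritic groups Timp2 lay between -0.11 ± 0.20 for coacervate against HA and 0.02 ± 0.20 for HA against osteoarthritic.

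Timp3 (rn6 chr7:23544215-23594133, minus strand), the aggrecanase inhibitor, had another pattern than Timp1. It had 99.6, 133, 162 and 107 normalised CPM in coacervate, 116, 113, 114 and 101 in HA, 127, 66.3, 78.3 and 94.2 in osteoarthritic, and 105, 105, 108 and 119 in healthy libraries. Osteoarthritic replicates 2, 3 and 4 were below all other libraries, and replicate 1 was above all HA and healthy ones. The log2 fold change of Timp3 was -0.26 ± 0.18 for osteoarthritic against healthy (adjusted p = 0.437), 0.46 ± 0.18 for coacervate against osteoarthritic (adjusted p = 0.172) and 0.28 ± 0.18 for HA against osteoarthritic (adjusted p = 0.759). Without osteoarthritic replicate 1 the coacervate against osteoarthritic difference in Timp3 was 0.65 and passed (adjusted p = 0.0248, range over the alternatives 0.0248 to 0.685), and without osteoarthritic replicates 2 and 3 it was 0.18. Without replicates 2 and 3, Timp3 in osteoarthritic against healthy cartilage came to 0.01. Summed endothelial markers (5 of 6 in the table) were 303, 392, 429 and 343 normalised CPM in coacervate libraries. They were 361, 285, 345 and 271 in HA, 372, 210, 241 and 305 in osteoarthritic, and 331, 322, 357 and 437 in healthy libraries. In the coacervate, HA and osteoarthritic groups they ranked the replicates in the same order as Timp3. Their part in the Timp3 differences was not tested.

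Relative to Timp3, Timp1 was more abundant in HA and osteoarthritic libraries than in coacervate and healthy ones. The ratio of Timp1 to Timp3 in FPKM, which does not depend on how libraries were scaled, was 0.501 ± 0.182 in coacervate, 0.943 ± 0.199 in HA, 1.23 ± 0.261 in osteoarthritic and 0.55 ± 0.0439 in healthy libraries (mean ± SD, n = 4). Each coacervate library (0.377 to 0.769) and each healthy library (0.511 to 0.609) was below each HA (0.774 to 1.19) and osteoarthritic library (0.906 to 1.54), with coacervate replicate 1 nearly touching the HA range. The ratio was looked at with the values of both genes known and was not tested. Osteoarthritic replicates 2 and 3, at 1.28 and 1.21, lay within the range of replicates 1 and 4, 0.906 and 1.54. Of the summed TIMP transcripts in FPKM, Timp1 made up 16% ± 4.72 in coacervate, 24.1% ± 3.06 in HA, 26.8% ± 3.15 in osteoarthritic and 18.4% ± 1.59 in healthy libraries. Timp3 made up 32.5% ± 2.06, 25.9% ± 2.22, 22.1% ± 2.18 and 33.7% ± 3.07 in the same 4 groups, while Timp2 stayed at 47.8% to 51.5% on average.

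**Figure D4:**
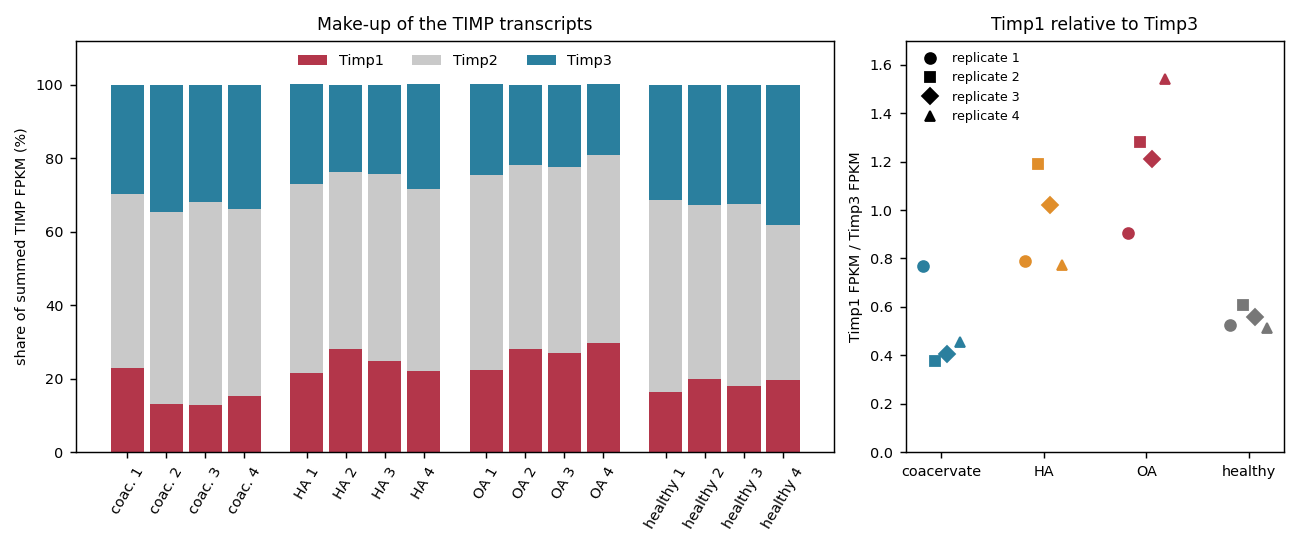
Left, share (%) of each TIMP in the summed FPKM of Timp1, Timp2 and Timp3, by library. Right, ratio of Timp1 to Timp3 in FPKM by library (linear axis from 0); coacervate and healthy libraries lie at 0.377 to 0.769, and HA and osteoarthritic (OA) libraries at 0.774 to 1.54.

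Set against the principal aggrecanases, Timp3 transcripts were 11.7 ± 0.943 times the sum of Adamts4 and Adamts5 (FPKM) in coacervate, 9.67 ± 0.506 in HA, 8.27 ± 1.71 in osteoarthritic and 11.1 ± 0.818 in healthy libraries. The lowest coacervate library (10.5) was above the highest HA and osteoarthritic ones (10.3 and 10.4), by a margin far smaller than the spread. The lowest ratios were in osteoarthritic replicates 1 and 4, at 7.0 and 6.78. Summed over all 6 ADAMTS genes, transcripts came to 19.1 ± 6.04, 18 ± 2.32, 16.5 ± 8.66 and 17.5 ± 1.35 FPKM in coacervate, HA, osteoarthritic and healthy libraries, so these means differed by less than the spread. Among the 9 genes the median log2 fold change was 0.32 for osteoarthritic against healthy, 0.26 for HA against healthy and 0.20 for coacervate against healthy, where that of all genes was 0.015, 0.002 and 0.004.

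Across the 16 libraries the genes fell into patterns that did not match the division into proteases and inhibitors. Pearson's r of log2 CPM was 0.92 between Adamts12 and Adamts15, 0.92 between Adamts12 and Timp2 and 0.86 between Adamts5 and Timp2. It was 0.83 between Adamts4 and Timp3, a protease and its inhibitor, and 0.75 between Adamts9 and Timp3. Timp1 had r of -0.22 with Timp3, -0.23 with Adamts9 and 0.03 with Adamts4. Without osteoarthritic replicates 2 and 3 (14 libraries), the first 4 of these were 0.94, 0.94, 0.88 and 0.82, while that of Adamts9 with Timp3 was 0.45. When the group means were taken out, every pair had a positive r, from 0.31 for Adamts9 with Timp1 to 0.94 for Adamts5 with Timp3. Timp1 then had r of 0.33 with Timp3 and 0.40 with Adamts4. The libraries of a group share a treatment and all shared an assay, and blood and muscle content differed between them, so these values are descriptions.

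**Figure D5:**
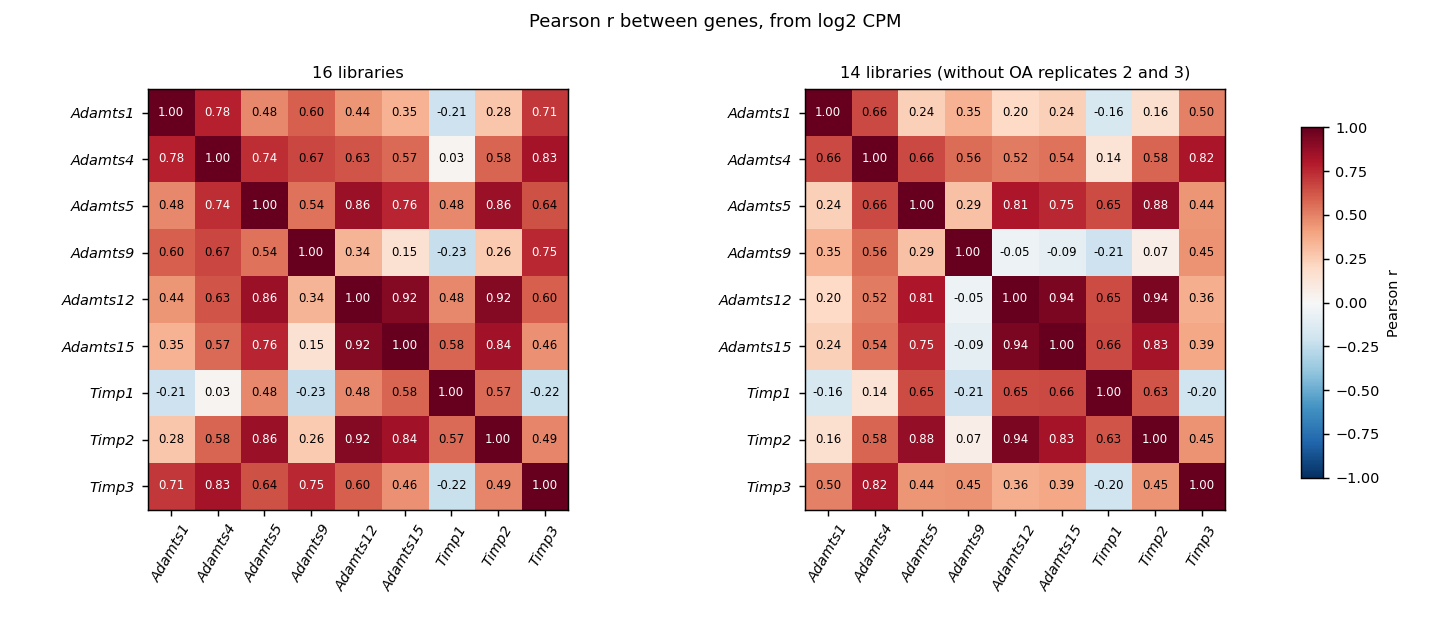
Pearson's r of log2 CPM between each pair of the 9 genes over 16 libraries (left) and over 14 libraries, without osteoarthritic (OA) replicates 2 and 3 (right). Timp1 has r between -0.23 and 0.03 with Adamts1, Adamts4, Adamts9 and Timp3, while Adamts12, Adamts15 and Timp2 have r of 0.84 to 0.92 with each other on the left.

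Among the other tested genes, those most like each member over the 16 libraries were named by the highest Pearson's r. Timp1 was most like Ccl7, a chemokine that attracts monocytes (r = 0.953), and Rab7b (r = 0.918). Ccl7 averaged 1.0, 5.65, 6.05 and 0.841 normalised CPM in coacervate, HA, osteoarthritic and healthy libraries. Adamts12 was most like Fn1, which encodes fibronectin (r = 0.979), and Col15a1 (r = 0.978). Adamts15 was most like Ssc5d (r = 0.939) and Col14a1, a collagen of fibrous tissue (r = 0.927), and Timp2 was most like Ccdc80 (r = 0.965) and Pdgfra, a receptor of mesenchymal cells (r = 0.962). Adamts5 followed Phldb1 (r = 0.951) and the basement membrane gene Nid1 (r = 0.942), and Timp3 followed Robo4, an endothelial gene (r = 0.958), and Map1a (r = 0.944). For Adamts1 the likest genes were the immediate early gene Nr4a1 (r = 0.924) and Ktn1 (r = 0.913), for Adamts4 Kremen1 (r = 0.90) and Tcf7l1 (r = 0.895), and for Adamts9 Cemip2 (r = 0.922) and Scn7a (r = 0.906). The highest of many r values is high partly by selection.

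Genes around the 9 were counted from 6 lists, with the same test. Of the MMP and ADAM genes that TIMPs inhibit, 20 of 23 were tested, and 2 rose and none fell in osteoarthritic against healthy cartilage, where 0.391% of all genes rose and 0.112% fell. Mmp3, stromelysin, averaged 65.8 ± 50.6 normalised CPM in osteoarthritic and 5.85 ± 1.04 in healthy libraries (SD, n = 4 each; log2 3.49 ± 0.65, adjusted p = 0.029), and Mmp10, stromelysin-2, 11.1 ± 8.08 and 1.23 ± 0.266 (log2 3.17 ± 0.67, adjusted p = 0.0498). In HA against healthy cartilage, where 0.146% of all genes rose, 1 rose, Mmp3 (66.9 and 5.85 normalised CPM, log2 3.51 ± 0.65, adjusted p = 0.0453). These calls sat near the threshold. The Mmp3 call in osteoarthritic cartilage was lost when any 1 healthy library or osteoarthritic replicate 4 was left out (adjusted p = 8.63e-06 to 0.104 over the alternatives). The Mmp10 call was lost without any 1 healthy library, osteoarthritic replicates 3 or 4, HA replicates 1 or 3 or coacervate replicates 1 or 2 (adjusted p = 3.26e-05 to 0.173 over the alternatives). The Mmp3 call of HA was lost without any 1 healthy library, osteoarthritic replicates 1 or 3, HA replicates 1, 2 or 3 or coacervate replicates 1 or 2 (adjusted p = 1.35e-05 to 0.201 over the alternatives). Without osteoarthritic replicate 1, 4 genes of this list rose and 1 fell in osteoarthritic against healthy cartilage, when 7.83% of all genes passed. In coacervate against osteoarthritic 2 of its 20 genes fell without that library, Mmp7 and Mmp8, when 14.3% of all genes passed. Without osteoarthritic replicate 4 or HA replicate 4, 3 rose in HA against healthy (Mmp3, Mmp10 and Mmp12). Without osteoarthritic replicate 2 or coacervate replicate 3, 2 rose there (Mmp3 and Mmp12). Over the libraries left out in turn, 0 to 37 of all tested genes passed in that comparison. The shares of all genes in these single fits are not given here. Coacervate libraries averaged 18.4 normalised CPM of Mmp3, with a log2 fold change of -1.84 ± 0.60 against osteoarthritic (adjusted p = 0.137). The median log2 fold change of this list was 0.22 for osteoarthritic against healthy and -0.23 for coacervate against osteoarthritic, where that of all genes was 0.015 and -0.01.

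None of the other 5 lists had a gene past the threshold of edgeR in any comparison with all 16 libraries, against 0.0% to 0.502% of all genes. Of the genes that induce or repress aggrecanase transcription, 22 of 27 were tested, and Il1rn came nearest over all comparisons. It encodes the antagonist of the interleukin-1 receptor, and averaged 29.4, 55.1, 61.0 and 30.4 normalised CPM in coacervate, HA, osteoarthritic and healthy libraries. Its log2 fold change was 1.0 ± 0.22 for osteoarthritic against healthy (adjusted p = 0.0584), -1.05 ± 0.22 for coacervate against osteoarthritic (adjusted p = 0.076) and -0.90 ± 0.22 for coacervate against HA (adjusted p = 0.155). DESeq2 called Il1rn in these 3 comparisons and in HA against healthy. Cebpb, of the same list, averaged 4.49, 3.17, 6.33 and 10.3 normalised CPM in coacervate, HA, osteoarthritic and healthy libraries. For HA against healthy its log2 fold change was -1.70 ± 0.40 (adjusted p = 0.119), nearer the threshold than Il1rn there (0.86 ± 0.22, adjusted p = 0.175). DESeq2 called Cebpb in that comparison too. Without osteoarthritic replicate 1, 5 genes of this list passed in osteoarthritic against healthy, of which Il1rn rose and Epas1, Foxo1, Runx2 and Sox9 fell. In coacervate against osteoarthritic 5 passed, Epas1, Foxo1, Il1b, Il1rn and Sox9, of which 3 rose and 2 fell. Of all genes 7.83% and 14.3% passed in those comparisons. Without osteoarthritic replicate 4, Il1rn also passed in coacervate against osteoarthritic, when 9.54% of all genes passed, and in HA against healthy. Of the substrates and their link proteins 3 of 7 were tested. Acan, which encodes aggrecan itself, averaged 178, 205, 189 and 174 normalised CPM in the same 4 groups, with log2 0.12 ± 0.35 for osteoarthritic against healthy (adjusted p = 0.873), and Vcan, versican, had log2 0.84 ± 0.32 (adjusted p = 0.219). Of the other ADAMTS genes 8 of 13 were tested, with Adamts2, a procollagen processing enzyme, at log2 0.78 ± 0.28 (adjusted p = 0.213). Of the ADAMTS-like genes 5 of 7 were tested, with Papln at -0.48 ± 0.24 (adjusted p = 0.314), all for osteoarthritic against healthy; without osteoarthritic replicate 1 Papln fell there and rose in coacervate against osteoarthritic. Of 12 tested genes of 14 for activation and clearance of these proteins, Fn1 had log2 1.01 ± 0.41 in that comparison (adjusted p = 0.235), and Sdc1, a cell surface proteoglycan, had -0.47 ± 0.15 for coacervate against osteoarthritic (adjusted p = 0.126). Without osteoarthritic replicate 1, Pcsk6 and Reck rose in that last comparison, when 14.3% of all genes passed.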

How the data were processed

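Per the labels' protocols, mRNA was captured on oligo(dT) beads from samples of RIN above 7, and strand-marked (dUTP) libraries were read from both ends. DESeq2, edgeR, StringTie 2.1.6, HISAT2 2.2.1, cutadapt 1.9 and build rn6 stand, without roles, in the submitters' processing notes. The counting tool, annotation version and strand setting are not given in the sources used here, so reads of overlapping genes cannot be told apart. Per the file headers, the deposited table gives every gene's count and FPKM by library. The deposited counts are whole numbers and not normalised. The FPKM are the authors' own scaling for length and depth. Values of 2 were commoner than values of 3 (6480 and 4576); whether a read pair counted once is not given in the sources used here.

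The test covered the 14337 genes that reached 1 FPKM in 4 or more of the 16 libraries, all 9 members among them. edgeR 4.0.16 in R 4.3.3 fitted 4 group means to all 16 libraries with TMM scaling and a quasi-likelihood test, and p-values were adjusted over all tested genes. Normalised CPM are counts over the effective library size, and log2 CPM for correlations used a prior count of 2. The alternatives were RLE scaling, DESeq2 1.42.0, no filter, limma 3.58.1 on log2(FPKM + 1) and log2(FPKM + 0.1), a replicate block, 2 groups alone, and leaving out libraries. The fit was first tested on simulated data. For osteoarthritic against healthy it recovered 24% of the 1.5-fold, 70% of the 2-fold and 96% of the 4-fold rises put in. For coacervate against osteoarthritic these shares were 26%, 72% and 94%. Most differences of 1.5-fold were thus missed. The members and lists were chosen with earlier results of these data known. All 9 members are named in each comparison. From the lists, the rule names the genes that passed and otherwise the 4 with the smallest p in each comparison; the text prints some of these, picked with their values known. For likeness, the 2 genes with the highest r are named. Gene positions are in rn6 in the deposited table, and promoter windows are RefSeq's on GRCr8. Promoter windows of Adamts5 and Adamts15 were not used here. Python 3.11.15, numpy 2.4.6 and pandas 2.3.3 made the summaries.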

Additional observations from a re-analysis of the deposited data

Results flagged for a closer look

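In 36 sets of 4 libraries (9 genes in 4 groups), 3 had a library far from the other 3, where chance marks about 1 in 20. HA replicate 2 was the highest of its group for Adamts1, at 22.6 normalised CPM against 15.3 to 16.2 in the other HA libraries. Healthy replicate 4 was the highest healthy library for Adamts15, at 6.12 normalised CPM against 3.67 to 4.08. HA replicate 4 was the lowest HA library for Timp3, at 101 normalised CPM against 113 to 116.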

How the results depend on the processing

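Of 432 fold changes of the 9 genes under settings other than leaving out 1 library, 401 kept their direction and side of the threshold, 11 came to pass it and 20 changed sign. Of 864 with 1 library left out, 808 kept both, 6 came to pass and 50 changed sign. Timp1 kept its sign in the 4 comparisons that separated it. With 1 library left out its log2 fold change was 0.73 to 0.98 for osteoarthritic against healthy, -1.02 to -0.73 for coacervate against osteoarthritic, -0.94 to -0.66 for coacervate against HA and 0.66 to 0.92 for HA against healthy. Without osteoarthritic replicates 2 and 3, HA against osteoarthritic came to -0.33 for Adamts1, -0.29 for Adamts4, -0.23 for Adamts9, -0.48 for Adamts12, -0.53 for Adamts15 and -0.28 for Timp2, all with the other sign. Coacervate against osteoarthritic then came to -0.03 for Adamts4, -0.16 for Adamts9 and -0.49 for Adamts12, and osteoarthritic against healthy to 0.30 for Adamts4 and 0.01 for Timp3. With limma on log2(FPKM + 1) and log2(FPKM + 0.1), coacervate against osteoarthritic was 0.04 and 0.11 for Adamts15 and 0.02 and 0.02 for Timp2, and HA against osteoarthritic 0.13 and 0.19 for Adamts5 and 0.08 and 0.08 for Timp1. With 1 library left out, these ranges held both signs: for HA against osteoarthritic, Adamts1 -0.09 to 0.35, Adamts4 -0.07 to 0.45, Adamts5 -0.24 to 0.21, Adamts9 -0.08 to 0.31, Adamts12 -0.18 to 0.33, Adamts15 -0.16 to 0.60, Timp1 -0.21 to 0.08 and Timp2 -0.12 to 0.16. For coacervate against osteoarthritic they were Adamts5 -0.39 to 0.06, Adamts9 -0.01 to 0.38, Adamts12 -0.20 to 0.32, Adamts15 -0.32 to 0.47 and Timp2 -0.29 to 0.05. For coacervate against HA they were Adamts4 -0.11 to 0.47, Adamts9 -0.04 to 0.18, Adamts12 -0.20 to 0.13 and Adamts15 -0.42 to 0.13. For coacervate against healthy they were Adamts1 -0.23 to 0.34, Adamts4 -0.10 to 0.48 and Adamts5 -0.07 to 0.20, and for Adamts4 also HA against healthy, -0.12 to 0.14, and osteoarthritic against healthy, -0.45 to 0.08.

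Counts of the 9 genes called, 0 in each comparison, came to 1 with DESeq2 in osteoarthritic against healthy, coacervate against osteoarthritic, coacervate against HA and HA against healthy. Without osteoarthritic replicates 2 and 3 they were 3 in osteoarthritic against healthy, 1 in coacervate against HA and 1 for any difference among the groups, and with 2 groups alone 3 in HA against healthy. With 1 library left out they were 0 to 2 in osteoarthritic against healthy and in coacervate against osteoarthritic and 0 to 1 for any difference. In osteoarthritic against healthy (2 as reported), the MMP and ADAM list had 5 calls with DESeq2, which called 2.92% of all genes. It had 4 without osteoarthritic replicates 2 and 3 (1.14% of all genes), 1 with no filter, and 0 with either limma setting or 2 groups alone. In HA against healthy (1 as reported) it had 5 calls with DESeq2 (1.11% of all genes) and with 2 groups alone (2.72%). It also had 5 there without those replicates, and 0 with no filter. DESeq2 called 1 of this list and 1 of the inducers and repressors in coacervate against osteoarthritic (5.56% of all genes). The same counts held in coacervate against HA (2.27% of all genes). It called 1 inducer or repressor in osteoarthritic against healthy and 2 in HA against healthy. In coacervate against osteoarthritic and in coacervate against healthy (0.126% of all genes) it called 1 activation or clearance gene. Without osteoarthritic replicates 2 and 3, osteoarthritic against healthy called 2 other ADAMTS genes, 1 substrate or link protein, 1 activation or clearance gene and 1 inducer or repressor. HA and healthy alone called 1, 1, 1 and 2 of these. With 1 library left out, calls in osteoarthritic against healthy were 0 to 5 for MMP and ADAM genes, 0 to 5 for inducers and repressors and 0 to 1 for ADAMTS-like genes; in coacervate against osteoarthritic 0 to 2, 0 to 5 and 0 to 1, with 0 to 2 activation and clearance genes; in HA against healthy 0 to 3 MMP and ADAM genes and 0 to 1 inducer or repressor. Over all genes and all alternatives, calls ranged from 8 to 1122 in osteoarthritic against healthy, 0 to 2054 in coacervate against osteoarthritic, 0 to 8 in HA against osteoarthritic, 0 to 325 in coacervate against HA, 0 to 390 in HA against healthy and 0 to 18 in coacervate against healthy. The cause of these changes was not tested.

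No clear pairing of the libraries by replicate number was seen. Deviations of same-numbered libraries from their group means had r of -0.39 to 0.21 over 24 pairs, 3 of them above 0.1. Of 16 libraries, 1 correlated best with its own number. With 4 libraries per group, this does not show that the libraries were unpaired. With the replicate block, none of the 9 genes passed, the MMP and ADAM list had 0 calls in osteoarthritic against healthy and 0 in HA against healthy, Adamts4 had log2 -0.01 in HA against healthy, and 26 genes in all passed in osteoarthritic against healthy. The smallest count of the 9 genes in a library was 132, for Adamts4; the share of the spread that comes from counting error was not tested.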
